A study of Mus musculus with 12 samples.

Results

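Meg3 and Rian are long noncoding RNA genes of the imprinted Dlk1-Dio3 locus, and they are described here across 4 groups of mouse cells. The groups are fibroblasts, cells after 1 day of doxycycline (day-1 cells), an iPS line made with Oct4 and Tet1, and an ES line. The 2 genes were taken by gene symbol: every probe set of the deposited value table that the platform annotation gives to Meg3 or to Rian and to no other gene. That left 1 probe set each, for 2 genes of the 9539 genes tested. RNA of 12 Affymetrix whole-transcript arrays was measured, 3 arrays a group, and values are on a log2 scale.

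The fibroblasts, at passage 3, were of OG2-GFP/Rosa26-M2rtTA background, except that the labels of replicates 2 and 3 read M3rtTA and M4rtTA in its place. The day-1 cells were also fibroblasts at passage 3, of OG2-GFP/Rosa26-M2rtTA background. Their donor mice had been generated from OT-iPS cells, and before collection they spent 1 day with doxycycline, which turns on the transgenes, in ES medium. The iPS cells were a single line, OT#b, induced with Oct4 and Tet1 and collected at passage 10 on the same background. The ES cells were the R1 line, of strain 129, at passage 20. Both pluripotent lines grew with LIF on fibroblast feeders whose division mitomycin C had stopped. A brief plating step that removes feeders is described for the ES cells. Day-1 cells and fibroblasts differ in mouse source, medium and doxycycline, and iPS and ES cells differ in origin, strain and passage. Within either pair these cannot be told apart.

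In mammals, genes of the Dlk1-Dio3 locus are imprinted: the protein genes Dlk1, Rtl1 and Dio3 are expressed mainly from the paternal copy, and the noncoding RNAs Meg3 (also called Gtl2), Rian and Mirg from the maternal copy. Rian hosts many C/D box small nucleolar RNAs, and a large microRNA cluster lies between Rian and Mirg and inside Mirg. Transcription of the maternal noncoding RNAs is widely thought to start mainly at Meg3 and to run on through Rian and Mirg. In mouse iPS lines, silencing of the maternal noncoding RNAs is known as a mark of lines with reduced developmental potency.

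The promoter windows of both genes are shown because the maternal RNAs are thought to share a start of transcription. They come from RefSeq on build GRCm38.p6 and run from 250 bases before to 50 after the annotated gene start. Capitals mark the words searched on both strands: TGCCGC, the hexamer bound by ZFP57 when methylated, here read as its reverse complement GCGGCA; TGACGTCA, the palindromic cAMP response element, which holds TGACG on both strands; and TATAAA, which overlaps itself on both strands.
Meg3 promoter window (chr12:109540746-109541045, plus strand): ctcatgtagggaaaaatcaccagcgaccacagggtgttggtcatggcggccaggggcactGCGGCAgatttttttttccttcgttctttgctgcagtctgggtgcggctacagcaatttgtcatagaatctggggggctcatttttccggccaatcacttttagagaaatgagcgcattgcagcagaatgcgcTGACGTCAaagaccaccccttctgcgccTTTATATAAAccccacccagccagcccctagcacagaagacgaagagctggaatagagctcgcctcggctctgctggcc
Rian promoter window (chr12:109603695-109603994, plus strand): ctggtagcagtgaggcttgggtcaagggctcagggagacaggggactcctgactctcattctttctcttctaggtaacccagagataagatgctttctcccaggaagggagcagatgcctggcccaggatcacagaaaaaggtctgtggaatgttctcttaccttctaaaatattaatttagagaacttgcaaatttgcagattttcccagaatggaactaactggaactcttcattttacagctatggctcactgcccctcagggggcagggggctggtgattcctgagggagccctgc
The Meg3 window held 13 CG dinucleotides, more than 62.1% of the 32851 RefSeq promoter windows, and the Rian window held 0. TGCCGC occurred once in the Meg3 window, at -190, and is found in 11.6% of all windows. TGACG occurred at -57 and -54 within a single TGACGTCA, against 20.8% of all windows with TGACG and 1.79% with TGACGTCA. TATAAA occurred at -29 and -25, as in 13.6% of windows, and GGGCGG, a GC box held by 35.7%, was in neither window. None of these words was in the Rian window. A second annotated Meg3 start, not printed, had 1 CG and none of the words. A match describes letters only.

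Of the 61 microRNA genes that RefSeq places between Dlk1 and Dio3, 24 had a probe set of their own. The arrays label whole transcripts, and no source used here tells whether such a probe set reads the hairpin, its host transcript or both, so a value below is that of the microRNA gene and not of the mature RNA. Mature sequences from RefSeq (GRCm38.p6) are given for the genes on which the results turn, with the seed, bases 2 to 8, in capitals. miR-341 lies in Rian, miR-379, miR-411 and miR-380 begin the cluster after Rian, the genes of miR-300 and miR-487b showed the largest differences between iPS and ES cells among the 24 genes, and miR-377 lies in Mirg.
mmu-miR-341-3p (chr12:109611556-109611576, plus strand): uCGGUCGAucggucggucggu
mmu-miR-379-5p (chr12:109709065-109709085, plus strand): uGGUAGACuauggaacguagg
mmu-miR-379-3p (chr12:109709102-109709123, plus strand): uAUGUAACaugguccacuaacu
mmu-miR-411-5p (chr12:109710190-109710210, plus strand): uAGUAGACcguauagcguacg
mmu-miR-411-3p (chr12:109710225-109710246, plus strand): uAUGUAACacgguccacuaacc
mmu-miR-380-3p (chr12:109711842-109711863, plus strand): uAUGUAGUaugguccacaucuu
mmu-miR-300-3p (chr12:109724363-109724384, plus strand): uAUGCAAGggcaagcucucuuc
mmu-miR-487b-5p (chr12:109727347-109727367, plus strand): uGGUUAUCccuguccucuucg
mmu-miR-377-3p (chr12:109740553-109740574, plus strand): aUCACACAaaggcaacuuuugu
Among the 46 mature sequences of the 24 genes, the only seed that occurred more than once was AUGUAAC, shared by miR-379-3p and miR-411-3p.

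Meg3 was high in fibroblasts, lowest in day-1 cells and intermediate in both pluripotent lines. Its log2 level was 11.10, 11.21 and 11.20 on the fibroblast arrays and 9.64, 9.82 and 9.68 on the day-1 arrays. It was 10.38, 10.29 and 10.40 on the iPS arrays and 10.51, 10.18 and 10.58 on the ES arrays. Every fibroblast array was above, and every day-1 array below, the arrays of the remaining groups, while iPS and ES arrays overlapped. Fibroblasts averaged 11.17 ± 0.06, day-1 cells 9.71 ± 0.10, the iPS line 10.36 ± 0.06 and the ES line 10.42 ± 0.21 (SD, n = 3 each).

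Rian had the same order of group means, fibroblasts, ES cells, iPS cells and day-1 cells from high to low. Its log2 level was 7.71, 7.94 and 7.84 on the fibroblast arrays and 6.49, 6.83 and 6.36 on the day-1 arrays. It was 7.36, 7.06 and 7.57 on the iPS arrays and 7.76, 7.36 and 7.79 on the ES arrays. The day-1 arrays lay below all others, but ES arrays overlapped both the iPS and the fibroblast arrays. Fibroblasts averaged 7.83 ± 0.11, day-1 cells 6.56 ± 0.24, the iPS line 7.33 ± 0.26 and the ES line 7.64 ± 0.25 (SD, n = 3 each). A further probe set, annotated to both Rian and the small nucleolar RNA gene AF357355 and so not tested, had a fibroblast mean of 9.36, a day-1 mean of 8.26, an iPS mean of 8.71 and an ES mean of 8.80, again lowest in day-1 cells. In bulk RNA, fewer cells that express a gene and less RNA per cell cannot be told apart.

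**Figure D1:**
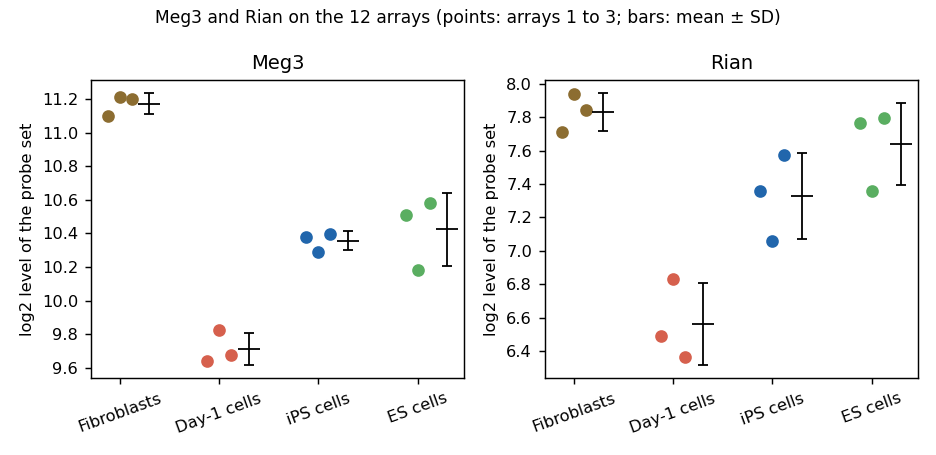
Log2 level of the Meg3 (left) and Rian (right) probe set on each of the 12 arrays, by group, with the group mean ± SD beside the points; the axes start above 0 and differ between panels. For both genes the day-1 arrays are below all others, and iPS and ES arrays overlap.

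The first comparison sets day-1 cells against the fibroblasts. Meg3 fell to 36.4% of its fibroblast level in day-1 cells, a log2 difference of -1.46 ± 0.10 (SE; 95% interval -1.67 to -1.24; limma, Benjamini-Hochberg adjusted p = 9.41e-08, n = 3 each). Rian fell to 41.6%, a log2 difference of -1.27 ± 0.16 (95% interval -1.60 to -0.93; limma adjusted p = 1.84e-05). Both passed the call used throughout, an adjusted p under 0.05 with at least a 2-fold difference, as did 4.33% of all genes in the same direction. By limma's treat, which tests against a 2-fold difference itself, Rian did not pass (adjusted p = 1). The day-1 arrays of both genes lay wholly below the fibroblast arrays. In this comparison 57.1% of the genes tested passed the adjusted p, in either direction. How many genes separated without overlap was not counted. Separate cultures or animals are not recorded for the 3 arrays of a group, and a p-value here reflects only how far these samples spread, which may be technical.

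The microRNA genes of the locus were also lower in day-1 cells. Of the 24, 15 fell and 0 rose by the same call, where 4.33% of all genes fell and 3.46% rose. All 24 differences were negative, with a median of -1.08 against 0.05 over all genes, of which 45.3% were negative. Mir379 had the lowest difference, -2.74 (means 3.40 in day-1 cells and 6.15 in fibroblasts), followed by Mir380 with -2.45. Mir341, inside Rian, had a difference of -0.97 and missed the 2-fold minimum. Of the 3 between Meg3 and Rian, Mir665 (-1.29) and Mir127 (-1.03) fell and Mir337 (-0.72) missed the 2-fold minimum. By treat, 4 of the 24 passed, as did 315 of all 9539 genes, in either direction. The probe set shared by Mirg and Mir410 was not tested and averaged 7.43 in day-1 cells and 8.44 in fibroblasts.

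Neither protein gene at the ends of the locus was called in day-1 cells, though both were higher by adjusted p alone. Dlk1, a membrane protein of the Notch ligand family, averaged 10.42 ± 0.02 in day-1 cells and 9.74 ± 0.21 in fibroblasts. That difference of 0.69 passed the adjusted p (0.000696, limma) and missed the 2-fold minimum. Dio3, the deiodinase that inactivates thyroid hormone, averaged 6.09 ± 0.06 in day-1 cells and 5.53 ± 0.48 in fibroblasts. The Dio3 difference was 0.56 (limma adjusted p = 0.0211), and its arrays overlapped. Of 4 measured genes that flank the locus, Wdr25, Evl, Ppp2r5c and Hsp90aa1, 0 were called by limma. By adjusted p alone 3 passed, Wdr25 and Hsp90aa1 higher and Ppp2r5c lower in day-1 cells, and 57.1% of all genes did.

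Markers of other cell types differed between these groups too. Of 20 fibroblast markers, 3 fell and 0 rose in day-1 cells, and their summed linear level was 64167 to 66176 on day-1 arrays and 71922 to 78740 on fibroblast arrays. All 20 kept a larger share of their fibroblast level than Meg3, and 18 a larger share than Rian. Over all genes, 3.46% rose and 4.33% fell. Of 5 measured neural markers 4 rose, and their sum was 2487 to 2560 in day-1 cells and 430 to 521 in fibroblasts. Of 8 macrophage markers 1 rose and 3 fell, with sums of 1525 to 1751 in day-1 cells and 2058 to 2525 in fibroblasts. Both measured muscle markers rose, with sums of 904 to 1140 in day-1 cells and 371 to 528 in fibroblasts. Of 2 endothelial and 2 endoderm markers 0 were called by limma, and 1, Gata4 of endoderm, was higher by adjusted p alone. The part of these differences in the fall of Meg3 and Rian was not tested. Of 13 pluripotency markers 0 were called by limma. An unadjusted p under 0.05 was found for 3 and an adjusted p under 0.05 for 2, against 57.1% of all genes with the latter. The sum of the 13 was 609 to 693 in day-1 cells and 553 to 646 in fibroblasts.

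The pluripotent lines were then set against the fibroblasts. In iPS cells Meg3 was at 56.8% of its fibroblast level, a log2 difference of -0.82 (95% interval -1.03 to -0.60; limma adjusted p = 2.87e-06), and Rian at 70.8%, a difference of -0.50 (-0.84 to -0.16; adjusted p = 0.00774). Neither reached the 2-fold minimum, while 29.6% of all genes were called lower. In ES cells Meg3 was at 59.6%, a difference of -0.75 (-0.96 to -0.54; limma adjusted p = 6.49e-06), and Rian at 87.6%, a difference of -0.19 (-0.53 to 0.15; adjusted p = 0.249). Neither was called, against 32.1% of all genes called lower. The Meg3 arrays of both lines and the Rian arrays of the iPS line lay below all fibroblast arrays. The Rian arrays of the ES line overlapped them, and how many of all genes separated without overlap was not counted. Of all genes, 94.2% in iPS and 94.9% in ES cells had an adjusted p under 0.05 against fibroblasts.

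The whole table was shifted in these comparisons, with a median difference of -0.35 over all genes in either line. Relative to that median, iPS cells had Meg3 at -0.47 and Rian at -0.15, while ES cells had Meg3 at -0.40 and Rian at 0.15. The sign of the Rian difference between ES cells and fibroblasts therefore depends on the scaling: it was 0.15 when each array was centred and 0.17 when the arrays were quantile normalized. In iPS cells Rian was at -0.25 (limma adjusted p = 0.147) with centred arrays and at -0.26 (0.127) after quantile normalization, so it passed the adjusted p only on the deposited scale. The Meg3 differences were negative under both scalings, with the ES value at -0.40 when centred.

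**Figure D2:**
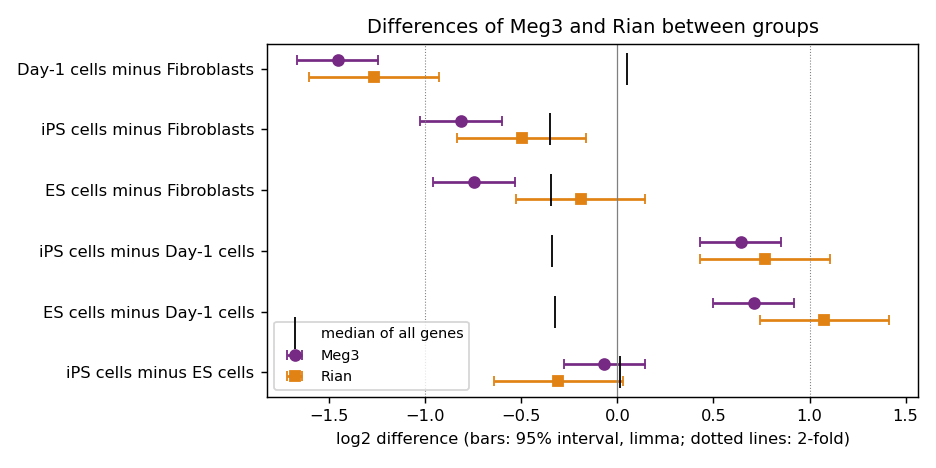
Log2 differences of Meg3 (circles) and Rian (squares) in the 6 comparisons, with 95% intervals from limma, the median difference of all genes (black ticks) and dotted lines at 2-fold. Both intervals lie left of the median of all genes for day-1 cells minus fibroblasts, right of it for both pluripotent lines minus day-1 cells, and hold 0 for iPS minus ES cells.

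Set against the day-1 cells, both genes were higher in the pluripotent lines. In iPS cells Meg3 was 1.56-fold the day-1 level, a log2 difference of 0.64 (95% interval 0.43 to 0.85; limma adjusted p = 3.22e-05), and Rian 1.70-fold, a difference of 0.77 (0.43 to 1.10; adjusted p = 0.000373). Neither was called, and 17.6% of all genes were called higher. In ES cells Meg3 was 1.63-fold the day-1 level, a difference of 0.71 (0.50 to 0.92; limma adjusted p = 1.18e-05) that was not called. Rian rose 2.11-fold in ES cells relative to day-1 cells, a difference of 1.08 (0.74 to 1.41; limma adjusted p = 1.77e-05), as did 20.4% of all genes. That Rian call lies near the 2-fold minimum: it was lost at 0.98 without day-1 replicate 3, at 1.00 without ES replicate 3, and by treat (adjusted p = 0.664). The median of all genes was -0.34 in iPS and -0.32 in ES cells relative to day-1 cells. With centred arrays Rian in iPS cells (1.02, limma adjusted p = 3.46e-05) and Meg3 in ES cells (1.05, adjusted p = 4.52e-07) were called as well. No iPS or ES array of either gene overlapped the day-1 arrays. Of all genes, 92.8% in iPS and 93.4% in ES cells had an adjusted p under 0.05 against day-1 cells. The share of all genes without overlap was not counted.

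The labelled cell types were set against their markers. All 13 pluripotency markers rose in both lines relative to fibroblasts, as did 21.8% of all genes in iPS cells and 23.4% in ES cells, with sums of 39841 to 40802 in iPS cells, 43407 to 45616 in ES cells and 553 to 646 in fibroblasts. Of the 20 fibroblast markers, 13 fell in iPS cells (29.6% of all genes) and 19 in ES cells (32.1% of all genes), with sums of 25973 to 26934 in iPS cells, 11295 to 13821 in ES cells and 71922 to 78740 in fibroblasts. In iPS cells the markers kept a median of 23.2% of their fibroblast level, with a range of 2.04% to 120%. Meg3 and Rian kept more than 16 of the 20, the exceptions being Col1a1, Col1a2, Col3a1 and Fap. In ES cells the markers kept a median of 8.37% (1.96% to 60.5%), Fap alone kept more than Meg3, and 0 kept more than Rian. The part of remaining fibroblast RNA in the levels of Meg3 and Rian was not tested.

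**Figure D3:**
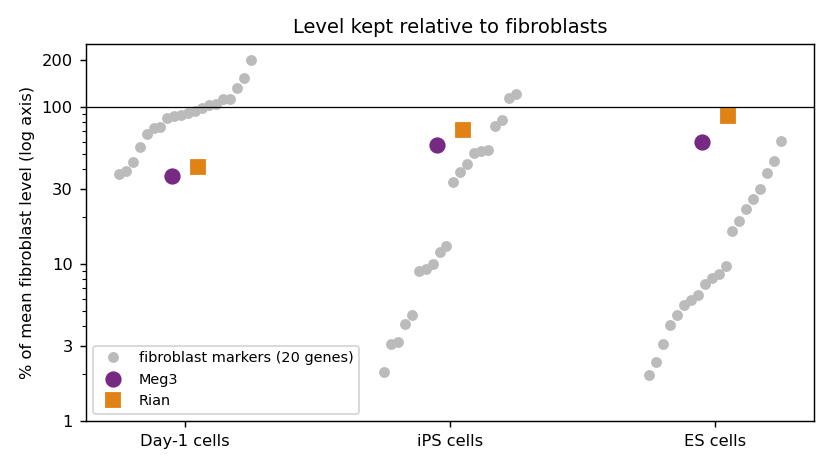
Level kept in day-1, iPS and ES cells as a percentage of the mean fibroblast level (log axis), for Meg3, Rian and 20 fibroblast markers (grey, sorted within a group). In ES cells Meg3 (59.6%) and Rian (87.6%) have only Fap (60.5%) above Meg3 and no marker above Rian, and in day-1 cells (36.4% and 41.6%) they lie at the lower end.

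The comparison of iPS with ES cells asks how close the reprogrammed line is to an embryonic line at this locus. Meg3 was at 95.4% of the ES level in iPS cells, a log2 difference of -0.07 (95% interval -0.28 to 0.14; limma adjusted p = 0.582). Rian was at 80.8%, a difference of -0.31 (-0.64 to 0.03; adjusted p = 0.107). Neither was called, 2.45% of all genes were called lower, and for both genes the arrays of the 2 lines overlapped. Without ES replicate 3, the ES array highest for both genes, the Meg3 difference was 0.01. The Rian difference passed the adjusted p, though never the fold minimum, at -0.43 after quantile normalization (limma adjusted p = 0.0302), -0.40 with centred arrays (0.0414), -0.45 without ES replicate 2 (0.0253) and -0.43 without iPS replicate 3 (0.0426). Without iPS replicate 2 the Rian difference was -0.17 (limma adjusted p = 0.381). Fibroblast markers also differed between the 2 lines: of the 20, 7 were called higher in iPS cells and 1 lower. The median of these markers was 0.75 against 0.01 over all genes, of which 4.44% were called higher and 2.45% lower. The part of fibroblast or feeder RNA in the Meg3 and Rian differences was not tested.

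The microRNA genes of the locus were lower in iPS than in ES cells. All 24 differences of iPS minus ES cells were negative, with a median of -0.85 against 0.01 over all genes, of which 48.7% were negative. Of the 24, 5 fell and 0 rose in iPS cells, where 2.45% of all genes fell and 4.44% rose. Mir300 averaged 5.29 ± 0.25 in iPS cells and 7.18 ± 0.26 in ES cells (SD, n = 3 each), a difference of -1.89 with a limma adjusted p of 1.13e-06. Mir487b averaged 6.16 ± 0.14 in iPS cells and 7.62 ± 0.26 in ES cells, a difference of -1.46 (limma adjusted p = 1.42e-06). For both genes the iPS arrays lay wholly below the ES arrays. The share of all genes that separated in this way was not counted, and 57.7% passed the adjusted p, in either direction. Mir380 (-1.27), Mir679 (-1.11) and Mir543 (-1.10) also fell, and all 5 lie between Rian and Mirg.

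The count of calls depended on the processing: 9 of the 24 were called with centred arrays, 11 after quantile normalization and 1, by treat, against a 2-fold difference. Of all 9539 genes, in either direction, 642 were called with centred arrays, 688 after quantile normalization and 226 by treat, against 658. All 24 differences remained negative under both scalings, and 23 did without ES replicate 1. Leaving out 1 array gave 5 to 8 calls, with 8 of them without iPS replicate 3. The probe sets share a locus and perhaps a transcript, so they are not independent of each other. The difference between the microRNA genes and Meg3 was not tested.

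Against fibroblasts the microRNA genes split. In iPS cells 12 of the 24 fell and 0 rose, while 29.6% of all genes fell and 21.8% rose. The median was -1.10, against -0.35 over all genes, and -0.85 with centred arrays. The lowest differences were those of Mir377, in Mirg (-2.88), Mir379 (-2.49) and Mir382 (-2.45). In ES cells 7 fell and 3 rose (median -0.25), while 32.1% of all genes fell and 23.4% rose. The 3 that rose were Mir487b (1.49), Mir381 (1.04) and Mir494 (1.04), and 1 rose without ES replicate 3. Under either scaling 5 fell and 4 rose. The ES median was 0.09 with centred arrays, so no direction is given for the set as a whole.

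Set against day-1 cells, 12 microRNA genes rose and 0 fell in ES cells (median 1.07), Mir380 by 2.15, where 20.4% of all genes rose. In iPS cells Mir494 (1.22) rose and Mir377 (-1.47) fell, where 17.6% of all genes rose and 26.6% fell, and 2 fell in 4 of the 6 fits that left out 1 array of these groups (without day-1 replicate 1 or 3, or iPS replicate 2 or 3). Across the 4 groups, 16 of the 24 had their lowest mean in day-1 cells, as Meg3 and Rian did, and 8 in iPS cells. The highest mean was in fibroblasts for 14 and in ES cells for 10.

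**Figure D4:**
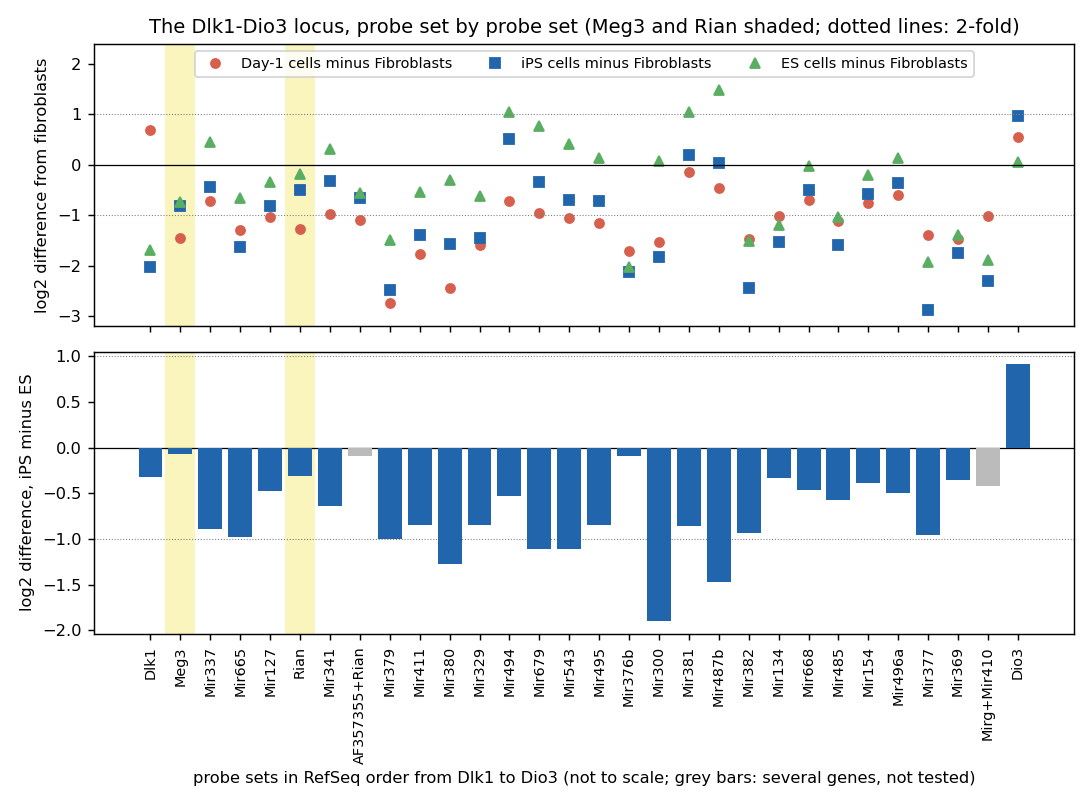
Log2 differences for the 30 probe sets in RefSeq order from Dlk1 to Dio3 (not to scale), against fibroblasts (top: day-1, iPS and ES cells) and between iPS and ES cells (bottom, grey bars for the 2 probe sets of several genes, not tested); Meg3 and Rian are shaded and dotted lines mark 2-fold. In the top panel the day-1 points from Meg3 to Mirg are all below 0 while Dlk1 and Dio3 are above it, and in the bottom panel the lowest bar is Mir300 (-1.89) and Dio3 is positive (0.91).

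Among the protein genes of the locus, Dlk1 fell in both pluripotent lines against fibroblasts, with a mean of 7.71 ± 0.25 in iPS cells, 8.04 ± 0.17 in ES cells and 9.74 ± 0.21 in fibroblasts (differences of -2.02 and -1.70). Dlk1 differed by -0.33 between iPS and ES cells (limma adjusted p = 0.0494) and was not called. Dio3 averaged 6.50 ± 0.20 in iPS cells and 5.59 ± 0.16 in ES cells, a difference of 0.91 that passed the adjusted p (0.00107, limma) and not the fold minimum. Rtl1 was not analysed here.

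The changes of Meg3 and Rian relative to fibroblasts were not of one size. Taken array by array, the Meg3 change minus the Rian change was -0.35 to -0.03 in day-1 cells, -0.52 to -0.11 in iPS cells and -0.60 to -0.52 in ES cells, and -0.06 to 0.05 among the fibroblasts themselves. In ES cells all 3 arrays thus showed a Meg3 level further below its fibroblast mean than the Rian level was below its own. A ratio of this kind compares changes, not levels.

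Within groups, the arrays on which Meg3 was high were mostly those on which Rian was high. After each group's mean was taken out, their deviations correlated at r = 0.84 over the 12 arrays, on which both genes were read from the same labelled RNA, and Rian ranked 23 among 9538 genes for Meg3. ES replicate 2 was the lowest ES array for both, and day-1 replicate 2 the highest day-1 array for both. The microRNA genes' deviations correlated with those of Meg3 at a median of 0.56 (-0.29 to 0.82) and with those of Rian at a median of 0.55 (-0.39 to 0.96), where Mir134 had the highest value with Rian and Mir379 the lowest with both. These are descriptions of 12 arrays.

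The genes whose pattern over the 12 arrays was most like that of Meg3 were, by Pearson correlation, Dst (0.981), a cytoskeletal linker, Bnip3 (0.978), a mitochondrial membrane protein, Ptprv (0.975), a phosphatase, Higd1a (0.974), another mitochondrial protein, and Slc22a23 (0.967), a solute carrier. For Rian they were Malat1 (0.931), a nuclear long noncoding RNA, Rhbdf2 (0.926), Mir380 (0.926), Slc23a2 (0.921), a vitamin C transporter, and Dgka (0.919), a diacylglycerol kinase. Meg3 and Rian correlated with each other at 0.902, which put Rian at rank 31 for Meg3 and Meg3 at rank 10 for Rian among 9538 genes. By Spearman correlation (0.965) Rian ranked 2 for Meg3 and Meg3 ranked 1 for Rian. The top 5 were unstable: by Spearman correlation, 2 of the 5 genes named for Meg3 and 1 of the 5 for Rian were in the top 5 again.

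Genes that control methylation of the locus and of other imprinted regions were compared as a list, all 18 of them measured. In day-1 cells 1 rose, Uhrf1 (1.38), which brings the maintenance methyltransferase to replicating DNA, and 0 fell, a share near the 3.46% of all genes that rose. By adjusted p alone 7 of the 18 were higher and 3 lower in day-1 cells, where 57.1% of all genes passed. Tet1 was among the higher ones (0.79, limma adjusted p = 8.36e-06) and missed the 2-fold minimum. Between iPS and ES cells 0 rose and 2 fell, Tet1 (-1.11), which oxidises methylated cytosine, and Jarid2 (-1.13), a partner of Polycomb complex PRC2. With centred arrays Dnmt3a fell as well. The list's median was -0.36 against 0.01 over all genes. By adjusted p alone 14 of the 18 were lower and 1 higher in iPS cells, where 57.7% of all genes passed. Dnmt3a (-0.96) and Dnmt3l (-0.08), the de novo methyltransferase and its cofactor, Zfp57 (-0.48), which protects imprints, Aff3 (-0.39), which binds the locus in ES cells, and Dppa3 (0.61), which protects maternal methylation in the early embryo, were not called. Of the genes just named as not called, only Dnmt3l missed the adjusted p as well. Against fibroblasts 15 of the 18 rose and 1 fell in iPS cells, where 21.8% of all genes rose and 29.6% fell. In ES cells 16 of the 18 rose and 1 fell, where 23.4% of all genes rose and 32.1% fell.

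Other imprinted genes were set beside Meg3 and Rian in the comparison of iPS with ES cells. Of 19 genes listed as expressed from the maternal copy, 8 were measured, and 2 fell in iPS cells, Dcn (-2.08) and Phlda2 (-1.09). Htr2a (0.98) came next, passed the adjusted p (9.23e-06, limma) and missed the fold minimum. Dcn is also one of the 20 fibroblast markers, of which it was the only 1 called lower in iPS cells, while 7 were called higher. Of 25 listed as expressed from the paternal copy, 17 were measured, of which 3 rose, Plagl1 (2.16), Igf2 (1.83) and Ddc (1.19), and 1 fell, Nnat (-1.07). Over all genes, 4.44% rose and 2.45% fell in iPS cells. Plagl1 encodes a zinc finger transcription factor and Igf2 a fetal growth factor. The lists' medians were -0.11 and -0.22 against 0.01 over all genes.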

How the data were processed

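Affymetrix whole-transcript arrays of 12 samples were used as the authors' deposited table of log2 values, a scale read from the range of 2.43 to 13.64. Summarisation and normalization are not given in the sources used here. Of its 10360 probe sets, 9542 had 1 symbol in the platform annotation, and a gene with several (3) was represented by the brightest. No probe set varied by less than 0.51 over the arrays, so adjusted p-values and shares refer to varying genes. Array medians were 7.89 to 8.29. Precision is limited by how many arrays there are: the standard error of a log2 difference had a median of 0.09.

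Groups were compared with limma 3.58.1 in R 4.3.3, with 1 mean per group over 12 arrays and Benjamini-Hochberg adjustment over 9539 genes. The fit was tested on simulated data. The genes named are Meg3, Rian, the measured genes of the locus, listed regulators and, for other imprinted lists, the 3 highest absolute differences between iPS and ES cells; genes that complete a count are named beyond that rule. Like genes are the 5 with the highest Pearson correlation, unnamed models left out. The members and lists were chosen with earlier results of these data known, and TGACGTCA was added after the sequence was seen. Same-numbered arrays of different groups deviated together with r of -0.21 to 0.06, in 0 of 18 pairs over 0.1, so the numbers were not used to pair arrays. Alternatives were other scalings, filters, priors, array weights, call rules, leaving out each array, and a replicate block. Python 3.11.15 (pandas 2.3.3; numpy 2.4.6) made the tables, and matplotlib 3.10.9 the plots.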

Additional observations from a re-analysis of the deposited data

How the results depend on the processing

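Of the differences of Meg3 and Rian, those of day-1 cells minus fibroblasts kept their sign and call in every alternative run, except that Rian (-1.27) lost its call by treat; without 1 array Meg3 ranged from -1.51 to -1.42 and Rian from -1.40 to -1.17. Treat also ended the call of Rian in ES minus day-1 cells (1.08), which ranged from 0.98 to 1.22 without 1 array. The difference of Rian in ES cells minus fibroblasts changed sign to 0.17 by quantile normalization and 0.15 with centred arrays. Meg3 in iPS minus ES cells ranged from -0.19 to 0.012 without 1 array, turning positive without ES replicate 3. Rian in iPS minus ES cells, never called, ranged from -0.45 to -0.17 without 1 array, and was -0.43 by quantile normalization and -0.40 centred. Rian in iPS cells minus fibroblasts was -0.26 by quantile normalization and -0.25 centred, where its adjusted p (0.127 and 0.147) no longer passed. Centring brought calls to Rian in iPS minus day-1 cells (1.02) and to Meg3 in ES minus day-1 cells (1.05). With no fold minimum, on the deposited scale, Meg3 (-0.82) and Rian (-0.50) were called in iPS minus fibroblasts, Meg3 (-0.75) in ES minus fibroblasts, Meg3 (0.64) and Rian (0.77) in iPS minus day-1 cells and Meg3 (0.71) in ES minus day-1 cells. Over all genes, 743, 4897, 5299, 4216, 4763 and 658 were called for day-1, iPS and ES cells against fibroblasts, iPS and ES cells against day-1 cells and iPS against ES cells, and with no fold minimum 5449, 8985, 9050, 8851, 8914 and 5502. Treat called 315 in the first and 226 in the last. A fit with the replicate number as a replicate block left every call of Meg3 and Rian as it was and all 6 counts about as they were. Meg3 in day-1 cells minus fibroblasts was then -1.46 (limma adjusted p = 1.07e-06). Same-numbered arrays share only a number. For the 24 microRNA genes, alternatives chosen after seeing the data gave 4 calls by treat and 23 with no fold minimum in day-1 cells minus fibroblasts, against 15. The table gives no background signal, so how far a probe set stood above it was not tested.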
